A study of Mus musculus with 15 samples.

Results

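SR proteins and heterogeneous nuclear ribonucleoproteins (hnRNPs) are the main families of proteins that choose splice sites in mammalian precursor mRNA. The genes described here were every gene symbol of the form Srsf with a number, every symbol starting with Hnrnp, and Tra2a, Tra2b, Srrm1 and Srrm2, with pseudogene symbols left out. This rule took 35 of the 25639 gene symbols in the count table. Of these, 11 were Srsf genes, 4 were the SR-related Tra2 and Srrm genes and 20 were Hnrnp genes. The cells were RAW264.7, a transformed mouse macrophage-like line described in the labels as wild type. A first group of 3 libraries came from untreated cells, and the other 4 groups, also with 3 libraries each, came from cells given LCCL, named in the series title as the core motif of a peptide studied for its effect on macrophages. They received either 1 µg or 10 µg of it and were collected either 6 h or 24 h later, giving all 4 combinations. No volume was given with the doses, no vehicle group was analysed here, the hour at which untreated cells were collected was not given, and all 15 libraries carried the same batch label. There was no untreated group for each time. A change between untreated and 24 h cells therefore cannot be told apart from one that comes with time in culture. Nothing stated that libraries of a group came from separate cultures, so p-values here speak to differences among libraries, some of which may be technical.

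SR proteins bind exonic enhancers through RNA recognition motifs and recruit the U1 and U2 spliceosome particles through a domain rich in arginine and serine (the RS domain), whose phosphorylation by SRPK and CLK kinases controls their movement into and out of nuclear speckles. hnRNPs coat nascent transcripts, and many of them repress nearby exons by competing with SR proteins; several also act in transcription, mRNA export, translation and mRNA decay. Many genes of both families carry poison exons or retained introns that limit their own protein, so the amount of RNA and the amount of protein need not move together, and a gene total of the kind analysed here does not show which isoform was made.

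Whole-table features that bear on these genes were as follows. Each library held 19085148 to 22434642 counts, and 12401 genes had enough counts to be tested. Of the 35 splicing factors, 34 were tested. Srsf12 was not, with 0 or 1 count in each library, and a count of 0 in a library allows up to 0.13 to 0.16 counts per 1000000 (CPM, on library sizes after TMM scaling; the limit stands for 3 counts and covers counting error). Replicate 1 of the group given 1 µg for 24 h stood farther from its 2 partners than any other library did; without it the counts against untreated cells below were 27 lower and 2 higher, against 27 and 3 with it. Summed over 12 macrophage marker genes, levels were 15430 to 15960 CPM in untreated libraries, 15240 to 15780 and 15380 to 15590 at 6 h, 14130 to 16580 at 24 h with 1 µg and 11790 to 12870 at 24 h with 10 µg, where the sum of the splicing factors was also lowest. Lyz2 made up most of that marker sum, at 9936 CPM untreated and 7573 with 10 µg for 24 h. The single markers moved both ways there: of 11 tested, 6 were called higher and 4 lower, with a median log2 change of 0.25, among them Adgre1 (F4/80) with 41.3 CPM untreated and 61.7 with 10 µg. Mertk, a macrophage receptor, had 2 counts over the untreated libraries, and the other 11 macrophage markers were above the detection filter. Of 6 neutrophil markers, 3 had no count in any untreated library, and their sum went from 3.741 to 5.465 CPM untreated to 20.51 to 26.99 and 31.62 to 36.76 CPM at 24 h with 1 µg and 10 µg, nearly all of it Csf3r, which had 33.8 CPM with 10 µg. Fibroblast, epithelial and B cell lists summed to below 2 CPM in every library, and 7 T cell markers to below 10 CPM. What part any of these marker shifts has in the results below was not tested, and in bulk RNA fewer cells of a type and less RNA per cell cannot be told apart.

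Together the 35 genes made up 1.226 ± 0.0146% of all counts in untreated cells (SD, n = 3, as in all groups). The share was 1.228 ± 0.0135% after 6 h with 1 µg and 1.206 ± 0.0162% after 6 h with 10 µg. After 24 h it was 1.018 ± 0.0381% with 1 µg and 0.901 ± 0.0112% with 10 µg. The lowest library of the 9 from untreated and 6 h cells held 1.192%, and the highest of the 6 from 24 h cells held 1.059%, so these ranges did not overlap. Untreated levels per kilobase of merged exons (GENCODE vM21 on GRCm38, a different build from the count table's) were highest for Hnrnpa2b1, a binder of A/G-rich motifs, at 379.6 ± 21.1 CPM per kilobase, Hnrnpab, a CArG-box and AU-rich binding family member, at 369.3 ± 7.95 and Hnrnpf, a G-tract binder, at 338 ± 8.09. Srsf2, at 252.5 ± 7.69, was the highest Srsf gene on this scale. The first 2 of these did not differ beyond their spread among libraries, while Hnrnpf lay below Hnrnpab and Srsf2 below Hnrnpf by more than the sum of their SDs. These SDs do not cover error in the exon lengths or reads from overlapping genes, so they do not settle the order of genes.

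**Figure D1:**
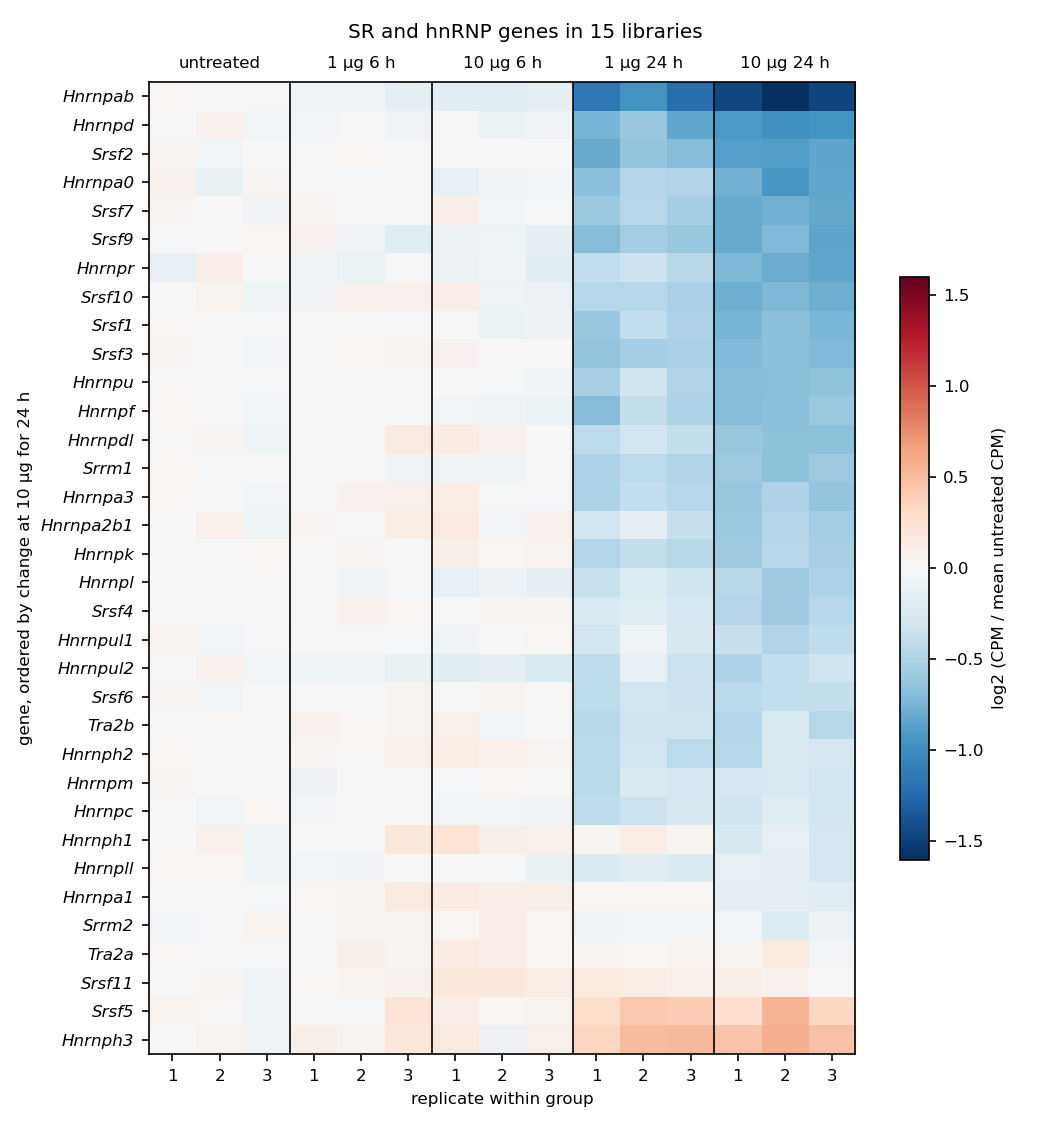
Each row is one of the 34 tested splicing factors and each column a library, with colour giving log2 of the CPM over the mean untreated CPM of that gene (blue lower, red higher). The 9 columns from untreated and 6 h cells are pale, the 6 columns from 24 h cells are blue in most rows, and Srsf5 and Hnrnph3 at the foot are red there.

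After 6 h these genes were near their untreated levels. With 1 µg none of the 34 passed the test in either direction (adjusted p under 0.05 over all 12401 genes, edgeR quasi-likelihood test, Benjamini-Hochberg adjusted, the threshold used throughout), and none had an unadjusted p under 0.05. At that dose and time 0% of all tested genes were called higher and 0% lower, and 337 had an unadjusted p under 0.05. With 10 µg for 6 h, 1 of 34 was called higher and 0 lower, against 4.09% and 1.86% of all tested genes. An unadjusted p under 0.05 was found there for 6 of the 34 and for 2288 of all 12401 genes. The median log2 fold change of the 34 was 0.01 at both doses. From here on, ± after a log2 change or difference is a standard error derived from the test statistic, and ± after CPM is the SD. Hnrnpab, the gene with the largest fall later, had 1046, 1034 and 1003 CPM in untreated libraries, 981, 990.1 and 923 at 1 µg and 912, 914 and 931 at 10 µg. Its log2 change with 10 µg was -0.16 ± 0.06, adjusted p = 0.111 by the same test, which did not pass. It was called lower with DESeq2 (adjusted p = 0.0377) and with only the groups compared in the fit (adjusted p = 0.000787). Hnrnpul2, a relative of the scaffold protein Hnrnpu, had the lowest log2 change of the 34 at that dose and time, -0.19 ± 0.06, adjusted p = 0.0516. It was called lower under 7 of 14 alternatives, the replicate block (adjusted p = 0.0396) and DESeq2 (adjusted p = 0.0175) among them, so the count of 0 lower depended on the fit.

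Srsf11, whose protein carries an RS domain and binds near 3′ splice sites, was the 1 gene called at 6 h. Its untreated libraries held 158, 162 and 151 CPM and its libraries at 10 µg for 6 h held 175, 176 and 170.3 CPM, with no overlap between the groups. The log2 change was 0.15 ± 0.04, adjusted p = 0.0456 (edgeR quasi-likelihood). That call sat at the edge of the threshold: it held in 3 of 14 alternatives, namely DESeq2 (adjusted p = 0.0251), limma-voom (0.0448) and only the groups compared in the fit (0.00936). It was lost without any 1 of the 6 libraries, with RLE, upper-quartile or no scaling factors in edgeR, with no filter on low counts (adjusted p = 0.0766) and with the replicate block (adjusted p = 0.0524), and where it was lost the adjusted p ran from 0.0523 to 0.233.

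At 24 h the families as a whole were lower. With 1 µg, 27 of the 34 genes were called lower and 3 higher, against 31% and 30.8% of all tested genes. With 10 µg, 30 were lower and 2 higher, against 34.9% and 35.4% of all tested genes. The median log2 change of the 34 was -0.36 with 1 µg and -0.51 with 10 µg, beside a median near 0.01 over all genes. Libraries of the 2 groups did not overlap for 28 genes that were lower with 1 µg and 30 with 10 µg; over all tested genes that held for 32.5% and 36%. Most changes were modest. A fall of more than 1.5-fold was fitted for 4 genes with 1 µg and 14 with 10 µg, and Hnrnpab was the 1 gene that fell more than 2-fold at either dose. Both comparisons use the same untreated libraries. Scaling by library totals or by the upper quartile moves the median of all genes at 24 h up to between 0.0945 and 0.1238. It moves the medians of the 34 to between -0.26 and -0.28 with 1 µg and between -0.40 and -0.42 with 10 µg. Under these scalings 25 to 27 genes were lower with 1 µg and 26 with 10 µg.

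**Figure D2:**
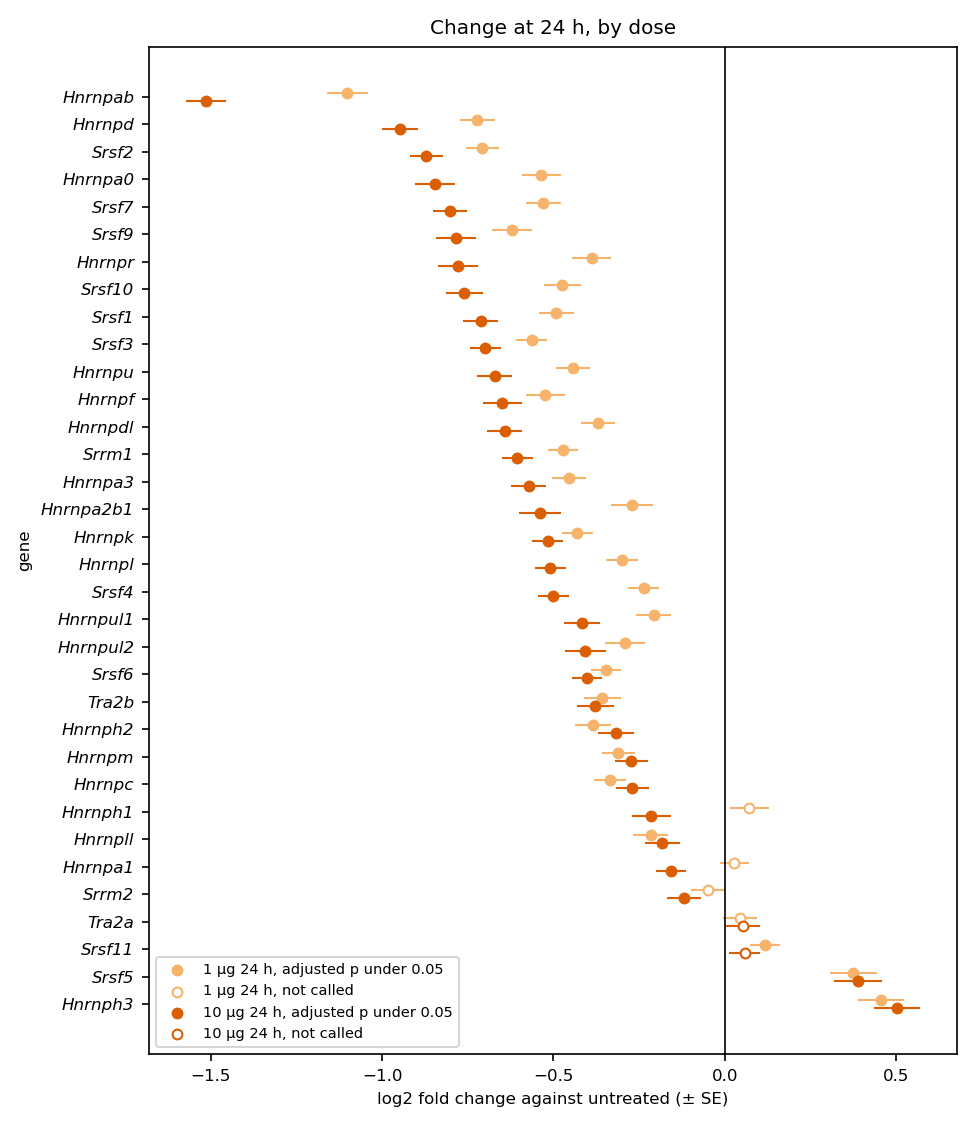
Points give the log2 fold change against untreated cells for each gene at 24 h, light orange for 1 µg and dark orange for 10 µg, with bars for the standard error; filled points passed an adjusted p of 0.05. With 10 µg 30 filled points lie left of 0, Hnrnpab farthest out at -1.51, and 2 lie right of it.

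Among the Srsf genes, 8 of 10 tested fell at each dose at 24 h, with a median log2 change over the 10 of -0.48 with 1 µg and -0.70 with 10 µg. These 8 were Srsf1, Srsf2, Srsf3, Srsf4, Srsf6, Srsf7, Srsf9 and Srsf10, under every scaling tried. Srsf2 (SC35), an enhancer-binding protein long used as the marker of nuclear speckles, fell most. It held 522, 492 and 503 CPM in untreated libraries, 289, 327 and 313 with 1 µg and 274, 273 and 283 with 10 µg at 24 h. All 6 treated libraries lay below all 3 untreated ones, and the fall with 10 µg was 1.83-fold, a log2 change of -0.87 ± 0.05, adjusted p = 2.59e-14 (edgeR). Exons of Srsf2 overlap those of Mfsd11 and Mettl23 on the opposite strand, and how strand entered the counting is not given in the sources used here.

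Srsf1 (ASF/SF2), the founding member of the family and a regulator of many cassette exons, held 646, 632 and 619 CPM untreated. Its libraries at 24 h held 417, 483 and 449 CPM with 1 µg and 378, 398 and 383 with 10 µg, and the group ranges at the doses did not overlap each other or the untreated range. The log2 changes against untreated cells were -0.49 ± 0.05 and -0.71 ± 0.05. Srsf3 and Srsf7, closely related proteins that also couple splicing to mRNA export through NXF1, fell side by side. Srsf3 held 239, 234 and 225 CPM untreated and 142, 146 and 142 with 10 µg for 24 h. Srsf7 held 145, 143 and 137 CPM untreated and 80.9, 82.8 and 80.1 with 10 µg for 24 h. In both genes every 24 h library was below every untreated one, with log2 changes at 10 µg of -0.70 ± 0.05, adjusted p = 5.63e-13 for Srsf3 and -0.80 ± 0.05, adjusted p = 3.57e-13 for Srsf7 (edgeR).

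Srsf9, Srsf10, Srsf4 and Srsf6 were the other Srsf genes that fell. Srsf9, a short SR protein, changed by -0.78 ± 0.06 and Srsf10, which acts as a repressor when dephosphorylated, by -0.76 ± 0.05 on the log2 scale with 10 µg. Srsf4 and Srsf6, both long SR proteins, changed by -0.50 ± 0.05 and -0.40 ± 0.04. Srsf6 held 358, 337 and 344 CPM untreated, 262, 280.5 and 275 with 1 µg and 257, 264 and 265.1 with 10 µg. Its 24 h groups lay below the untreated libraries and overlapped each other.

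Srsf5, the closest relative of Srsf4 and Srsf6, was the Srsf gene that rose at both doses. It held 186, 181 and 169 CPM in untreated libraries, 218, 241 and 238 with 1 µg for 24 h and 216, 263 and 224 with 10 µg for 24 h. Every 24 h library lay above every untreated one, and 1 library at 10 µg, replicate 2, was the highest. The rise was 1.3-fold with 1 µg (log2 change 0.38 ± 0.07, adjusted p = 9.62e-05) and 1.31-fold with 10 µg (0.39 ± 0.07, adjusted p = 4.74e-05, edgeR). Srsf11 was called higher with 1 µg for 24 h, at 174, 169.8 and 166 CPM and a log2 change of 0.12 ± 0.04, adjusted p = 0.0242, and not with 10 µg, at 168, 165 and 157 CPM and 0.06 ± 0.04, adjusted p = 0.246 (edgeR). Whether its change differs between the doses did not pass the test either (log2 difference -0.06 ± 0.04, adjusted p = 0.325). The call with 1 µg was lost without untreated replicate 3 (adjusted p = 0.122) or without replicate 1 of 1 µg for 24 h (adjusted p = 0.064), with no filter on low counts (adjusted p = 0.0615) and with only the groups compared in the fit (adjusted p = 0.0585). Scaling by library totals or the upper quartile gave a call with 10 µg (0.15 and 0.17, adjusted p = 0.00568 and 0.00131).

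**Figure D3:**
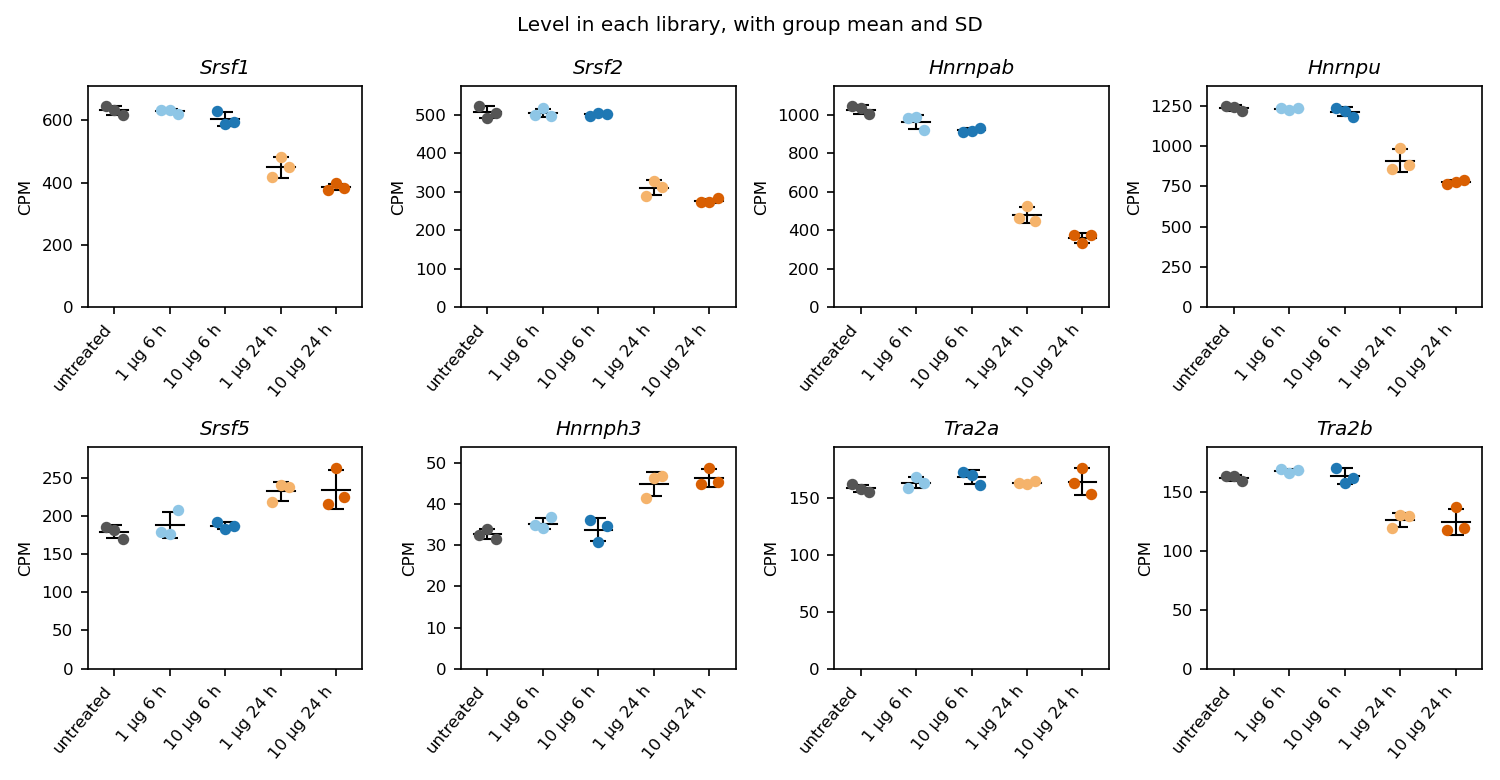
Each panel is a gene, with points for the CPM of the 3 libraries of each group and black bars for the group mean and SD, on axes that start at 0. Srsf1, Srsf2, Hnrnpab and Hnrnpu step down at 24 h, Srsf5 and Hnrnph3 step up, and Tra2a has no such step while Tra2b drops.

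The SR-related genes split. Tra2b, a binder of GAA-rich enhancers best known from SMN2 exon 7, held 164, 164 and 159 CPM untreated, 119.6, 131 and 129.8 with 1 µg for 24 h and 118, 137 and 119.6 with 10 µg for 24 h. Its 24 h libraries lay below the untreated ones at both doses, with log2 changes of -0.36 ± 0.05, adjusted p = 3.05e-06 and -0.38 ± 0.05, adjusted p = 8.6e-07 (edgeR). Tra2a, its paralog with closely similar RNA binding, held 162, 157 and 155 CPM untreated, 163, 162 and 164 with 1 µg and 163, 177 and 153 with 10 µg. Its changes were 0.04 ± 0.05, adjusted p = 0.453 and 0.05 ± 0.05, adjusted p = 0.342 and did not pass; scaling by library totals or the upper quartile called it higher at both doses, by 0.13 to 0.17, where those scalings also raise the median of all genes as given above. Tra2a libraries at 10 µg spread across the untreated range.

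Srrm1, a coactivator that bridges SR proteins and the spliceosome, fell with both doses. It held 267, 257 and 258 CPM untreated and 174, 165 and 174 with 10 µg for 24 h, and the log2 change there was -0.61 ± 0.04, adjusted p = 7.11e-12 (edgeR). Srrm2, the very large scaffold protein of nuclear speckles, changed little. It held 1005, 1014 and 1078 CPM untreated, 989.9, 1002 and 1003 with 1 µg and 1001, 884 and 967 with 10 µg, and its change with 10 µg of -0.12 ± 0.05, adjusted p = 0.0374 passed narrowly. That call was lost without untreated replicate 3 (adjusted p = 0.165), without replicate 2 of 10 µg for 24 h (adjusted p = 0.228) and under scaling by library totals or the upper quartile (adjusted p = 0.603 and 0.939). Exons of Srrm2 overlap those of Elob on the opposite strand.

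Of the 20 Hnrnp genes, 17 were lower and 1 higher with 1 µg for 24 h, and 19 were lower and 1 higher with 10 µg. Their median log2 change was -0.35 with 1 µg and -0.51 with 10 µg, and under library totals or the upper quartile 15 to 17 were lower with 1 µg and 16 with 10 µg. Hnrnpab changed most of all 34 genes. Its untreated libraries, given above, lay between 1003 and 1046 CPM, against 464, 527 and 445 with 1 µg and 376, 331 and 373 with 10 µg. The 3 groups did not overlap. The fall was 2.14-fold with 1 µg (log2 change -1.10 ± 0.06, adjusted p = 6.26e-14) and 2.86-fold with 10 µg (-1.51 ± 0.06, adjusted p = 4.29e-17, edgeR). Exons of Hnrnpab overlap those of Phykpl on the opposite strand.

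Hnrnpd (AUF1), which binds AU-rich elements and promotes the decay of many cytokine mRNAs, is the closest relative of Hnrnpab and had the next largest fall. It held 236, 255 and 236 CPM untreated, 144, 159.5 and 137 with 1 µg and 128, 124 and 125 with 10 µg for 24 h, with no overlap between the 3 groups. The log2 change with 10 µg was -0.95 ± 0.05, adjusted p = 2.46e-14 (edgeR). Hnrnpdl, the remaining member of that subfamily, changed by -0.64 ± 0.05 on the log2 scale. Hnrnpa0, another AU-rich element binder, held 406, 355 and 396 CPM untreated and 226, 202 and 216 with 10 µg, and its change was -0.85 ± 0.06, adjusted p = 1.95e-12 (edgeR). All 4 genes were lower in every 24 h library than in any untreated one.

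The A/B group held both large and small changes. Hnrnpa2b1, which recognises A/G-rich motifs and also sorts RNAs in the cytoplasm, had 918, 978 and 876 CPM untreated, 748, 834 and 715 with 1 µg and 609.7, 670.4 and 626 with 10 µg for 24 h. Its groups did not overlap, and its log2 changes were -0.27 ± 0.06 and -0.54 ± 0.06. Hnrnpa3 changed by -0.57 ± 0.05 with 10 µg. Hnrnpa1, the classic antagonist of Srsf1 in splice site choice, held 299, 304 and 294 CPM untreated, 306, 305 and 303 with 1 µg and 267, 271 and 266 with 10 µg. With 1 µg its change of 0.03 ± 0.04, adjusted p = 0.577 did not pass, and with 10 µg it was -0.16 ± 0.04, adjusted p = 0.00225 (edgeR). Relative to all genes these were small: under library totals and the upper quartile Hnrnpa1 was called higher with 1 µg (0.13 and 0.11) and was not called with 10 µg (-0.07 and -0.04). Hnrnpa1 has many processed copies in the genome, and reads shared with them may be assigned or dropped in ways the sources used here do not describe.

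Hnrnpu (SAF-A), a scaffold attachment protein that binds both chromatin and RNA, held 1250, 1243 and 1219 CPM untreated, 856, 991 and 883 with 1 µg and 766, 775 and 791 with 10 µg for 24 h. Its groups did not overlap, and its log2 change with 10 µg was -0.67 ± 0.05, adjusted p = 9.58e-12 (edgeR). With 10 µg its relatives Hnrnpul1 and Hnrnpul2 changed by -0.42 ± 0.05 and -0.41 ± 0.06, in that order. Under library totals Hnrnpul1 was not called with 1 µg (adjusted p = 0.0657). Hnrnpr, an RNA-binding relative of Syncrip, changed by -0.78 ± 0.06 with 10 µg. Hnrnpf, a G-tract binder, held 987, 972 and 941 CPM untreated, 598, 739.7 and 679 with 1 µg and 599.8, 610.4 and 639 with 10 µg, and changed by -0.52 ± 0.06 and -0.65 ± 0.06. Its libraries at the 2 doses overlapped. Exons of Hnrnpu overlap those of Cox20 on the opposite strand.

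Hnrnpk, which binds C-rich RNA and DNA, held 375, 371 and 386 CPM untreated and 254, 276 and 261 with 10 µg for 24 h, and Hnrnpl, a binder of CA repeats, 294, 293 and 300.3 and 217, 199 and 208. Both lay below the untreated libraries in every 24 h library, with log2 changes at 10 µg of -0.52 ± 0.05 and -0.51 ± 0.05. Exons of Hnrnpk overlap those of Rmi1 on the opposite strand. Hnrnpc, a binder of U tracts that keeps cryptic exons silent, and Hnrnpm, a binder of GU-rich RNA, each changed by -0.27 ± 0.05 with 10 µg. Their mean levels at 24 h were 184 and 198 CPM with 1 µg, against 193 and 203 with 10 µg. Hnrnpll, the paralog of Hnrnpl known for switching CD45 exons in lymphocytes, held 91.9, 92.6 and 86.3 CPM untreated, 76.8, 79.4 and 77.1 with 1 µg and 82.5, 81.1 and 75.2 with 10 µg. It was called lower at both doses (-0.22 ± 0.05, adjusted p = 0.000639, and -0.18 ± 0.05, adjusted p = 0.00249, edgeR), but under library totals not at either (adjusted p = 0.0576 and 0.115) and under the upper quartile not with 10 µg (adjusted p = 0.236).

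The H group, which with Hnrnpf reads G tracts, moved in different directions. Hnrnph3, the smallest protein of the group, rose. It held 32.6, 34 and 31.5 CPM untreated, 41.5, 46.4 and 47 with 1 µg for 24 h and 45, 49 and 45.4 with 10 µg for 24 h, and every 24 h library was above every untreated one. The rise was 1.37-fold with 1 µg (0.46 ± 0.07, adjusted p = 2.29e-06 on the log2 scale) and 1.42-fold with 10 µg (0.50 ± 0.07, adjusted p = 3.24e-07, edgeR). Hnrnph2 fell, by -0.38 ± 0.05 and -0.32 ± 0.05 on the log2 scale. Hnrnph1 held 429, 456 and 411 CPM untreated, 444, 471 and 447 with 1 µg, where its change of 0.07 ± 0.06, adjusted p = 0.285 did not pass, and 363, 396 and 359 with 10 µg, where it was -0.21 ± 0.06, adjusted p = 0.00177 (edgeR). Under library totals and the upper quartile Hnrnph1 was higher with 1 µg (0.17 and 0.16) and not called with 10 µg (-0.12 and -0.10). Exons of Hnrnph3 overlap those of Rufy2 on the opposite strand, and its level per kilobase was low (13.38 ± 0.509 CPM untreated). The part of its counts that Rufy2 could give was not tested.

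Promoter sequences of the gene that fell most, of the Srsf gene that rose and of the Tra2 paralogs are shown because their RNAs moved differently under the same treatment. They are the 250 bases before the RefSeq transcription start on GRCm38.p6, written 5′ to 3′ in the direction of the gene, with capitals at matches, on either strand, to 6 short motifs whose letters are given after the sequences. Overlapping matches run together, as the GC box and ETS site nearest the start of Srsf5 do. Hnrnpab lies at chr11:51606882-51607131 on the minus strand, Srsf5 at chr12:80945249-80945498 on the plus strand, Tra2a at chr6:49264053-49264302 on the minus strand and Tra2b at chr16:22266006-22266255 on the minus strand.
Hnrnpab: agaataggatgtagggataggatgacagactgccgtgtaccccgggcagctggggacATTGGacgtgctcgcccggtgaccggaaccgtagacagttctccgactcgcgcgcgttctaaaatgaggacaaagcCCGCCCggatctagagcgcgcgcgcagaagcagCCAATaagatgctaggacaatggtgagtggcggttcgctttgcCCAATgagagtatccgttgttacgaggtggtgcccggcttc
Srsf5: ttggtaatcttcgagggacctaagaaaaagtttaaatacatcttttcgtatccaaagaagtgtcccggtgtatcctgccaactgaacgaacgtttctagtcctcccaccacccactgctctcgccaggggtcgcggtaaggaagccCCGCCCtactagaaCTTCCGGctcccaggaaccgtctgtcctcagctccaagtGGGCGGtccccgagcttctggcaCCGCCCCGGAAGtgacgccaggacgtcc
Tra2a: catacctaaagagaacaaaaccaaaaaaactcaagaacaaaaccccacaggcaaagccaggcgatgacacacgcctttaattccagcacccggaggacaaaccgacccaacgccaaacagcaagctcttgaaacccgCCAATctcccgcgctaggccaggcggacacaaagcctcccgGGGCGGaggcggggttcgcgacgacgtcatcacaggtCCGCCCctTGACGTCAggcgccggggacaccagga
Tra2b: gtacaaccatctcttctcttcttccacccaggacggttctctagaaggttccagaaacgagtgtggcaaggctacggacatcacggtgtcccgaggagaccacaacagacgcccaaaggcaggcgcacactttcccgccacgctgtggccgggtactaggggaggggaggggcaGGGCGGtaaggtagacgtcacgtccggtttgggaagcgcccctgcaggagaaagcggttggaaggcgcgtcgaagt
The window of Hnrnpab held 3 CCAAT boxes and 1 GC box, that of Srsf5 held 3 GC boxes and 2 ETS sites, that of Tra2a held 1 CCAAT box, 2 GC boxes and 1 CRE, and that of Tra2b held 1 GC box. RefSeq windows were matched for 33 of the 35 genes, 32 of them tested. The CCAAT box, searched as CCAAT, was in 18 of these 32 windows, against 37.5% of the genes in the whole promoter table. The GC box, searched as GGGCGG and known as a site for SP factors, was in 26 of the 32, against 35.4% of all genes. The ETS site, searched as CCGGAAG, was in 6 of the 32 windows and in 7.83% of all genes. An E box of the type bound by MYC, searched as CACGTG, was in 3 of the 32 windows and in 6.86% of all genes. The TATA box, searched as TATAAA, was in 3 of the 32 windows and in 14.3% of all genes. The CRE, searched as TGACGTCA, was in 1 of the 32 windows, that of Tra2a, and in 1.77% of all genes. The whole promoter table holds 27025 genes, against 12401 tested here, so many of its genes had few or no counts. No share over tested genes was taken, and these shares do not show a trait particular to splicing factors. A match describes letters in this window and not binding, and no binding data were analysed here.

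Ratios of counts between relatives within a library need no scaling between libraries. The pairs were picked with their values known, so the ratios are a description with no test. Tra2a over Tra2b was 0.99, 0.962 and 0.975 in untreated libraries, 1.36, 1.24 and 1.27 with 1 µg for 24 h and 1.39, 1.29 and 1.28 with 10 µg for 24 h. At 6 h it was 0.936, 1.01 and 0.965 with 1 µg and 1.01, 1.08 and 0.995 with 10 µg, so the 24 h libraries lay apart from all others. Srsf5 over Srsf6 went from 0.519, 0.538 and 0.493 untreated to 0.834, 0.859 and 0.865 with 1 µg and 0.839, 0.997 and 0.846 with 10 µg at 24 h. Hnrnph3 over Hnrnph2 went from 0.181, 0.193 and 0.182 to 0.316, 0.326 and 0.355 and 0.349, 0.325 and 0.309. By contrast Srsf3 over Srsf7 was 1.64, 1.64 and 1.65 untreated, 1.6, 1.54 and 1.68 with 1 µg and 1.76, 1.76 and 1.78 with 10 µg. That ratio moved less than those before it, and its libraries at 10 µg lay above the untreated ones. Hnrnpab over Hnrnpd, both falling, went from 4.42, 4.06 and 4.26 to 3.21, 3.31 and 3.26 and 2.94, 2.67 and 2.99.

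**Figure D4:**
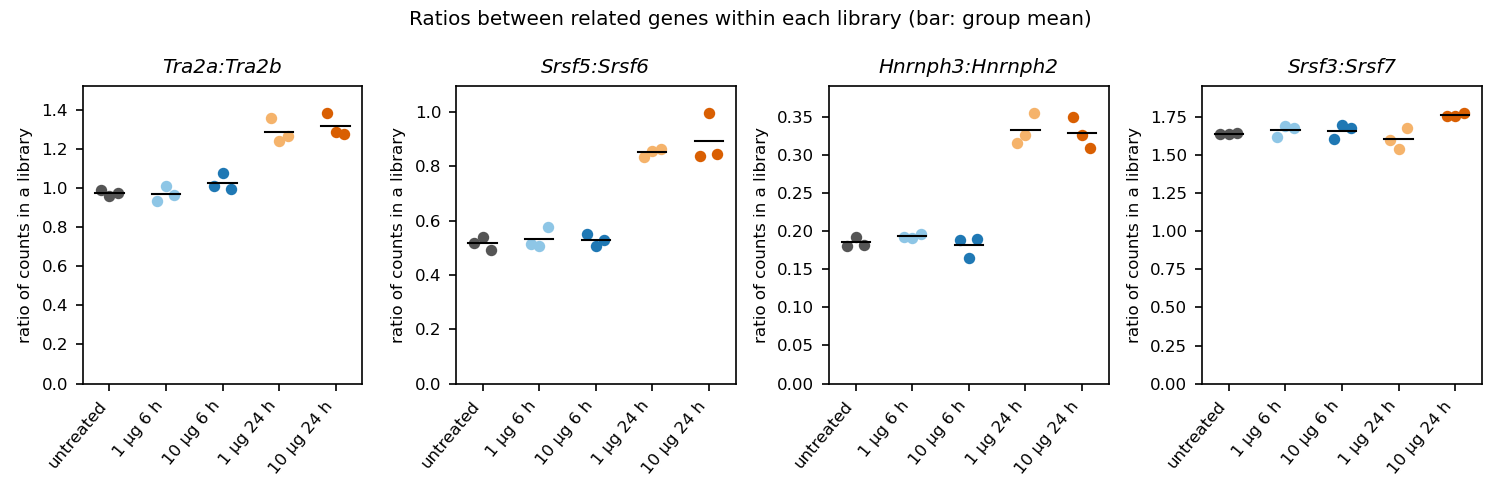
Each panel plots the ratio of the counts of 2 related genes in every library by group, with a bar for the group mean and the axis starting at 0. Tra2a:Tra2b, Srsf5:Srsf6 and Hnrnph3:Hnrnph2 are higher in all 24 h libraries than in any other library, while Srsf3:Srsf7 stays between 1.54 and 1.78.

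The doses were compared directly at each time. At 6 h no splicing factor was called between 10 µg and 1 µg, 1 had an unadjusted p under 0.05, and 1.85% of all tested genes were called higher and 0.492% lower (edgeR). At 24 h, 19 of the 34 were lower with 10 µg than with 1 µg and 0 were higher, against 19.3% and 16% of all tested genes, with a median log2 difference of -0.15. The 19 were 7 Srsf genes, Srrm1 and 11 Hnrnp genes. Hnrnpab differed most (-0.41 ± 0.06, adjusted p = 3.95e-06), then Hnrnpr (-0.39 ± 0.06, adjusted p = 8.83e-06) and Hnrnpa0 (-0.31 ± 0.06, adjusted p = 0.000147, edgeR). Among Srsf genes the differences were -0.29 ± 0.05 for Srsf10, -0.27 ± 0.05 for Srsf7, -0.26 ± 0.05 for Srsf4, -0.22 ± 0.05 for Srsf1, -0.16 ± 0.05 for Srsf2 and -0.13 ± 0.05 for Srsf3. Hnrnph1 and Hnrnpdl differed by -0.29 ± 0.06 and -0.27 ± 0.05. The genes that had risen showed no difference that passed: Srsf5 0.01 ± 0.07, adjusted p = 0.907 and Hnrnph3 0.05 ± 0.07, adjusted p = 0.634. Nor did Tra2b (-0.02 ± 0.05), Srsf6 (-0.06 ± 0.04), Hnrnpc (0.07 ± 0.05), Hnrnpk (-0.09 ± 0.05), Hnrnpll (0.03 ± 0.05) or Srrm2 (-0.07 ± 0.05) pass. Srsf9 passed with -0.16 ± 0.06, adjusted p = 0.0338. Of the 19 calls, 4 were lost under some of the 14 alternatives: Srsf9 kept its call in 8 of them, Srsf3 in 9, Srrm1 in 10 and Srsf2 in 12. All 4 lost it with only the groups compared (adjusted p = 0.0902, 0.136, 0.143 and 0.0931, in that order) and without replicate 2 of 1 µg for 24 h (0.137, 0.058, 0.0964 and 0.0612). Leaving out 1 library at a time gave 15 to 22 genes lower, and without replicate 1 of 10 µg for 24 h Hnrnph2 was called higher.

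Between 6 h and 24 h at the same dose, 27 genes were lower and 2 higher with 1 µg, against 30.5% and 30.3% of all tested genes, and 30 were lower and 2 higher with 10 µg, against 35.2% and 34%. The medians were -0.39 and -0.55 on the log2 scale. These comparisons leave out the untreated libraries, whose collection time is not given. They cannot tell LCCL apart from longer time in culture either, as there was no untreated group for each time. Srsf2 changed by -0.70 ± 0.05 with 1 µg and -0.86 ± 0.05 with 10 µg, Srsf3 by -0.59 ± 0.05 and -0.72 ± 0.05, Srsf7 by -0.54 ± 0.05 and -0.81 ± 0.05, and Srrm1 by -0.45 ± 0.04 and -0.57 ± 0.04. Hnrnpab changed by -1.01 ± 0.06 and -1.35 ± 0.06, and Hnrnpd by -0.68 ± 0.05 and -0.89 ± 0.05. The rises were 0.31 ± 0.07, adjusted p = 0.000758 and 0.33 ± 0.07, adjusted p = 0.000332 for Srsf5 and 0.35 ± 0.07, adjusted p = 8.76e-05 and 0.45 ± 0.07, adjusted p = 1.68e-06 for Hnrnph3 (edgeR).

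Whether the dose made a different change at 24 h than at 6 h was tested as an interaction, the log2 difference between doses at 24 h minus that at 6 h. It was called below 0 for 13 of the 34 genes and above 0 for none, against 11% and 7.58% of all tested genes, with a median of -0.13. Hnrnph1 (-0.35 ± 0.08, adjusted p = 0.00298), Hnrnpab (-0.34 ± 0.08, adjusted p = 0.00419) and Hnrnpr (-0.34 ± 0.08, adjusted p = 0.00416) had the largest values (edgeR). Srsf4, Srsf7 and Srsf10 were the Srsf genes that passed, at -0.26 ± 0.06, -0.27 ± 0.07 and -0.24 ± 0.08. Hnrnph1 held 452 ± 31.4 CPM with 1 µg and 473 ± 26 with 10 µg at 6 h, against 454 ± 14.5 and 373 ± 20.4 at 24 h, and its dose difference at 6 h, 0.07 ± 0.06, adjusted p = 0.718, did not pass. The count of 13 depended on single libraries. It was 8 without replicate 1 or without replicate 2 of 1 µg for 6 h, 7 without replicate 2 of 1 µg for 24 h and 7 without replicate 3 of 10 µg for 24 h.

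The kinases that phosphorylate SR proteins were not lower as a list. Of 8 listed kinases, 4 were higher and 1 lower with 1 µg for 24 h, and 4 higher and 2 lower with 10 µg, with medians of 0.18 and 0.20. Clk1, a nuclear kinase that releases SR proteins from speckles, went from 88 ± 3.76 CPM to 133 ± 0.851 with 1 µg and 137 ± 12.2 with 10 µg, a log2 change of 0.64 ± 0.06, adjusted p = 1.8e-10 (edgeR). Clk4 went from 43.8 ± 2.22 CPM to 59.1 ± 3.19 and 63.5 ± 3.07 (log2 change 0.54 ± 0.06 with 10 µg). Srpk1, which phosphorylates SR proteins in the cytoplasm ahead of their import, went from 131 ± 3.32 CPM to 107 ± 4.98 and 93.5 ± 0.885 (log2 change -0.48 ± 0.05). Under the upper quartile and library totals the list's median was 0.27 to 0.29 with 1 µg and 0.29 to 0.31 with 10 µg. Those scalings also raise the median of all genes, as given above, so the positive sign there adds no support.

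Other proteins of the hnRNP class that carry different symbols were lower as well. Of 8, 7 were lower and 1 higher at each dose at 24 h, with medians of -0.43 and -0.63. With 10 µg the log2 changes were -0.86 ± 0.06 for Ptbp1, the polypyrimidine tract binding protein, -0.79 ± 0.07 for Rbmx (hnRNP G) and -0.77 ± 0.06 for Syncrip (hnRNP Q). Of 21 tested other regulators of alternative splicing (26 listed), 5 were higher and 9 lower with 1 µg and 5 higher and 13 lower with 10 µg, with medians of -0.11 and -0.38. Sfpq, a paraspeckle protein, changed by -1.01 ± 0.06 and Elavl1 (HuR), a stabiliser of AU-rich mRNAs, by -0.75 ± 0.05 with 10 µg, while Tia1, a U-rich binder that recruits U1, rose by 0.58 ± 0.06 with 1 µg. Of 18 other RS-domain and speckle proteins, 5 were higher and 7 lower with 1 µg and 6 higher and 10 lower with 10 µg. Their median of -0.03 with 1 µg gives no direction, since library totals turned it to 0.07. With 10 µg the median was -0.14, and its value under that scaling is not given here. Rsrp1 and Pnisr, RS-rich proteins, rose by 1.16 ± 0.06 and 0.67 ± 0.05 with 10 µg and Pnn (pinin), a protein bound to the exon junction complex, changed by -0.70 ± 0.05.

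The core of the spliceosome was mostly lower at 24 h, apart from the U1 proteins. Of 18 U2 and 3′ splice site proteins, 18 were lower at each dose (15 to 17 under library totals or the upper quartile), with medians of -0.45 and -0.51; Sf3b3, Snrpa1 and Dhx15 changed by -0.82 ± 0.05, -0.98 ± 0.07 and -0.69 ± 0.05 with 10 µg. Of the 7 Sm proteins, the ring shared by the small nuclear particles, 6 were lower with 1 µg and 7 with 10 µg, led by Snrpd1 at -1.40 ± 0.08. Of 22 tri-snRNP proteins, 18 and 20 were lower with none higher, among them Snu13 (-1.18 ± 0.05), Prpf31 (-1.04 ± 0.06) and Lsm6 (-1.15 ± 0.07). Of 22 factors of the Prpf19 complex and the catalytic steps, 12 and 15 were lower and 2 higher at each dose. Their medians were smaller, at -0.16 and -0.19, and values of this list under library totals or the upper quartile are not given here. Its lowest gene with 10 µg was Ppil1, a cyclophilin of the active spliceosome, at -1.87 ± 0.08. Of 5 U1 proteins, 2 were higher and 2 lower with 1 µg and 1 higher and 2 lower with 10 µg, and the sign of their median depended on the scaling with 1 µg (-0.03 in the TMM fit, 0.07 under library totals).

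The lists for later steps of mRNA handling also had more genes called lower than higher. Of 7 exon junction complex proteins, 6 were lower at each dose at 24 h, with medians of -0.41 and -0.57, and Rnps1, a splicing activator of that complex, changed by -0.53 ± 0.05 with 10 µg. Of 10 nonsense-mediated decay factors, which remove the poison-exon isoforms of SR and hnRNP genes, 5 were lower and 1 higher with 1 µg and 7 lower and 1 higher with 10 µg. Their medians were smaller, at -0.19 and -0.23. Upf1, the central helicase, changed by -0.71 ± 0.05 with 10 µg, and Smg9 was higher with 1 µg (0.47 ± 0.07). Of 14 export and import factors, 9 were lower and 1 higher with 1 µg and 10 lower and 1 higher with 10 µg, with medians of -0.27 and -0.27. Values of these later-step lists under library totals or the upper quartile, which raise the median of all genes, are not given here. Alyref, the adaptor that loads NXF1 onto mRNA, changed by -1.08 ± 0.06 with 1 µg and -1.53 ± 0.06 with 10 µg. All lists are to be read beside 31% of all tested genes lower and 30.8% higher with 1 µg for 24 h. With 10 µg these shares were 34.9% and 35.4%. With 1 µg the counts for the U1 proteins, the other regulators and the other RS-domain and speckle proteins were not far from these shares. The lists were drawn up with earlier results of these data known.

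**Figure D5:**
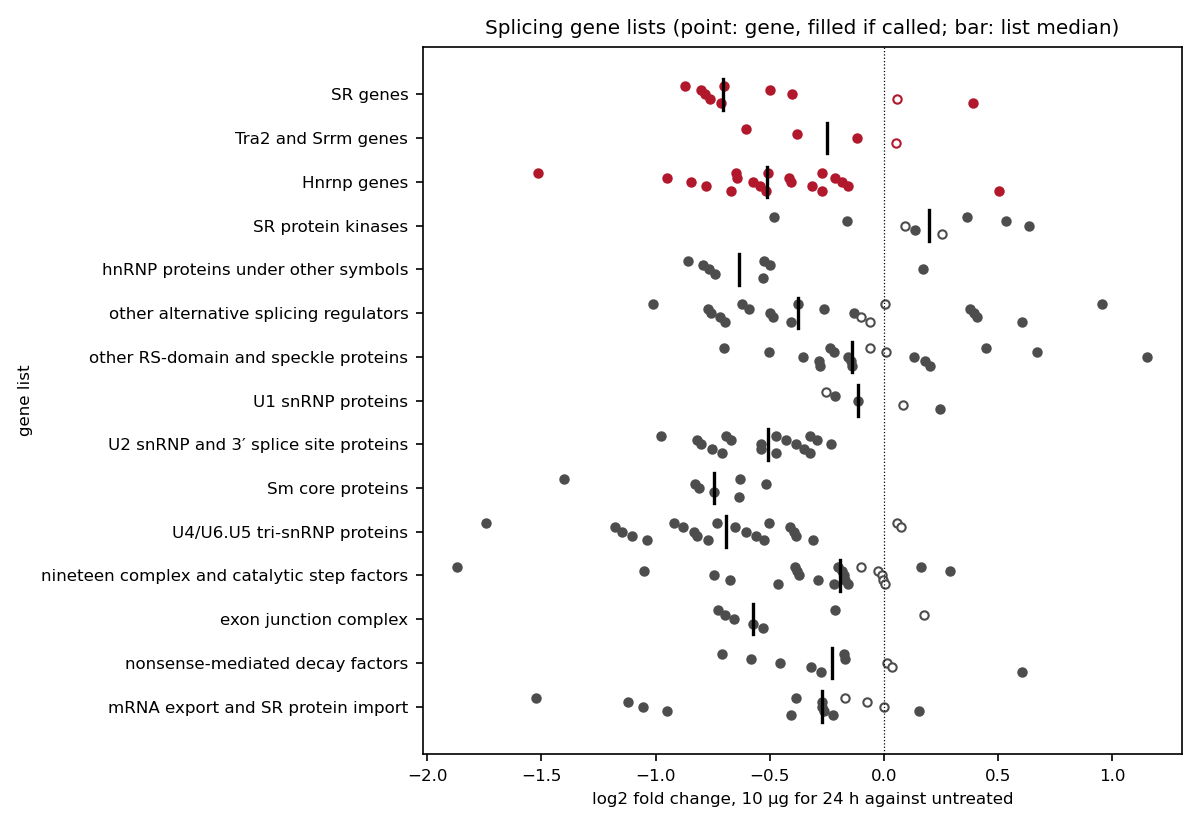
Each point is a gene's log2 fold change with 10 µg for 24 h against untreated cells, filled where it passed an adjusted p of 0.05, with a bar at each list's median; red rows are the 34 splicing factors by class and grey rows the other lists. The U2, Sm and tri-snRNP rows lie almost wholly left of 0, as does the Hnrnp row. Of the 10 SR genes 2 lie right of 0, and the SR protein kinases have a median right of 0.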

How the data were processed

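RNA was sequenced from 15 RAW264.7 libraries, made with an Illumina TruSeq stranded mRNA kit per the labels' protocols. The authors deposited 1 table of raw read counts per gene symbol, with columns matched to libraries by the names given in the labels; no column was unmatched. The build is GRCm39 per the submitters' processing notes; no source used here gives the aligner, counter, annotation or strand setting, and counting can split reads between overlapping genes or near-identical copies.

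Counts were tested in R 4.3.3 with edgeR 4.0.16 (TMM scaling, filterByExpr, robust quasi-likelihood fit, prior count 0.125) in 1 fit of all 5 groups with no covariate, two-sided, Benjamini-Hochberg over 12401 genes, which held 99.97% of counts; 8141 symbols had no count. Calls used an adjusted p under 0.05. The common biological coefficient of variation was 5.68%, with 10 residual degrees of freedom. No pair of libraries agreed within sampling noise. The 9 comparisons shared these libraries. Alternatives were DESeq2 1.42.0, limma-voom (limma 3.58.1), RLE factors, no filter, only the groups compared, a replicate block and leaving out each library; library totals and upper-quartile factors were added after seeing the data. Scripts were tested on simulated data.

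Members and lists were chosen with earlier results of these data known. All members are accounted for; those named with values are a fixed set of well-known members plus, per class and comparison, up to 4 called in each direction with the smallest adjusted p, and up to 3 called genes per pathway list; a few further members are given by value to complete a subfamily. RefSeq promoters and GENCODE vM21 overlaps and lengths are on GRCm38, and no coordinate was converted.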

Additional observations from a re-analysis of the deposited data

Results flagged for a closer look

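For 13 splicing factors the effect of dose differed between the 2 time points, by a test of the difference itself (edgeR quasi-likelihood interaction term, Benjamini-Hochberg adjusted over 12401 genes, where 11% were called lower and 7.58% higher). Each value is the log2 difference between 10 µg and 1 µg at 24 h minus that at 6 h, ± SE, and all 13 are below 0. Among the Srsf genes it was -0.26 ± 0.06, adjusted p = 0.00525 for Srsf4, -0.27 ± 0.07, adjusted p = 0.00775 for Srsf7 and -0.24 ± 0.08, adjusted p = 0.0312 for Srsf10. In the group of AU-rich binders it was -0.34 ± 0.08, adjusted p = 0.00419 for Hnrnpab, -0.22 ± 0.07, adjusted p = 0.041 for Hnrnpd, -0.29 ± 0.07, adjusted p = 0.00519 for Hnrnpdl and -0.25 ± 0.08, adjusted p = 0.0355 for Hnrnpa0. Hnrnpa1 had -0.22 ± 0.06, adjusted p = 0.0109 and Hnrnpa2b1 -0.27 ± 0.09, adjusted p = 0.0272. Hnrnph1 had -0.35 ± 0.08, adjusted p = 0.00298 and Hnrnpr -0.34 ± 0.08, adjusted p = 0.00416. Hnrnpu had -0.21 ± 0.07, adjusted p = 0.0421 and its relative Hnrnpul1 -0.22 ± 0.07, adjusted p = 0.0421. Hnrnpa1, Hnrnpab, Hnrnpdl, Hnrnph1, Hnrnpr, Srsf4 and Srsf7 passed under every alternative tried, and the other 6 lost the call under at least 1 of them.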

How the results depend on the processing

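No called splicing factor changed direction under any alternative: of 4488 values over 306 gene results, 4340 kept their call or its absence, 113 lost it and 35 gained it. Counts at 24 h against untreated cells and between times kept within 1.5 times except where given. With 10 µg for 6 h, the 1 higher gene became 0 with RLE factors, no filter, library totals, the upper quartile and each library left out (0 to 0), and 3 with only the groups compared; the 0 lower became 3 with DESeq2, 1 with RLE factors, 1 with no filter, 1 with library totals, 1 with the upper quartile and 3 with only the groups compared. With 1 µg for 24 h the 3 higher became 6 with library totals and 6 with the upper quartile, and with 10 µg the 2 higher became 4 and 4. Those 2 scalings, chosen after seeing the data, raise the share of all calls that are higher from 49.8% to 63.2% and 61.1% with 1 µg and from 50.3% to 58.7% and 61% with 10 µg. Between doses at 6 h the 0 lower became 1 with only the groups compared, and at 24 h the 0 higher was 0 to 1 without single libraries. The interaction count of 13 was 8 with the upper quartile and 7 to 15 without single libraries. The cause of these shifts was not tested. No source used here states whether replicate numbers pair the libraries, and the counts gave little sign of it. The 30 same-number correlations of deviations from group means ran from -0.0946 to 0.106, 1 of them over 0.1. Of 60 best matches, each among 3 libraries, 24 were to the own number. Such values cannot exclude a paired design. With the replicate block the counts were 27 lower and 3 higher with 1 µg for 24 h, 30 and 2 with 10 µg, 0 higher and 1 lower with 10 µg for 6 h, and 11 for the interaction. Depth limits Srsf12 alone among these genes.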
